A study of Mus musculus with 6 samples.

Results

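The 8 genes described here are the peroxisome proliferator-activated receptors Ppara, Ppard and Pparg, the retinoid X receptors Rxra, Rxrb and Rxrg, and the PGC1 coactivators Ppargc1a and Ppargc1b. They were chosen by gene name from the 54532 genes of the count table, and all 8 passed the filter on low counts that left 13693 genes for testing. Bulk RNA sequencing gave 6 liver libraries of male mice, 3 labelled wild type (WT, replicates 1 to 3) and 3 labelled Trem2 knockout (KO, replicates 4 to 6). Both groups are littermates that ate a high-fat diet for 8 weeks from 8 weeks of age. Trem2 codes for a receptor that macrophages carry and that binds lipids, and the design sets livers lacking it beside normal ones under the same diet. The labels give neither the deleted exons nor whether each library came from a mouse of its own, so p-values measure the spread between these libraries, which may in part be technical.

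PPARs are nuclear receptors for fatty acids and their derivatives, and they bind DNA only as a pair with an RXR. In liver, PPARα drives fatty acid oxidation in the fasted state, PPARγ is the receptor of fat storage, best known from adipocytes and raised in fatty liver, and PPARδ is expressed broadly. PGC1 proteins bind no DNA themselves; they dock on PPARs and other factors and raise transcription of mitochondrial, gluconeogenic and, for PGC1β, lipogenic genes.

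Libraries held between 11591021 and 20399361 counts. Trem2 counts were 7, 26 and 26 for WT replicates 1, 2 and 3, against 9, 6 and 5 for KO replicates 4, 5 and 6. At 0.436 CPM (counts per 1000000 after TMM scaling between libraries), WT replicate 1 fell within the KO-labelled values of 0.278 to 0.817 CPM. Groups are therefore named by label, and each direction compares libraries by their labels. Hepatocyte markers, led by albumin, were abundant in each library (summed level of 10 markers 79290 to 115900 CPM). The library labelled KO replicate 5 stood apart through markers of other tissues. The adipocyte genes Adipoq, Plin1, Lep and Retn together had 343 counts there, against 0 to 7 in each of the other 5 libraries, and 7 skeletal muscle genes had 1704 counts, against 10 to 23. These 4 adipocyte genes were picked from a list of 9 after their values were seen, because hepatocytes express several of the others. Summed over all 9, KO replicate 5 did not stand apart, at 5495 CPM against 4136 to 7669 CPM in the other libraries. The share of counts from the mitochondrial genome was 28% in KO replicate 4 and 19.8% in KO replicate 6, and 8.16% to 12.7% in the other 4 libraries. The highest shares were thus in KO-labelled libraries. A fit with this share as covariate cannot fully separate it from the labels, and can remove or add a difference between the groups.

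None of the 8 genes differed between the labelled groups at an adjusted p of 0.05 over all genes in edgeR's quasi-likelihood test, where 0.0146% of the tested genes did. At an unadjusted p under 0.05 there were also 0 of 8, where 8.58% of the tested genes lay. DESeq2, which called 1.08% of its genes, and limma-voom called 0 of 8 as well. In limma-voom with sample quality weights 1 of the 8 passed, Pparg, at an adjusted p of 0.0307. That fit called 4063 of all 13693 genes tested, so a pass there does not single out a gene. Pparg was also the single gene of the 8 whose KO-labelled and WT-labelled TMM-scaled CPM did not overlap, where 13.9% of the tested genes did not (8.12% with the KO-labelled libraries higher, 5.73% with them lower). This depended on the scaling: with library size alone Pparg overlapped, and Ppargc1a did not, with its KO-labelled values lower. In bulk tissue, fewer cells of a type and less RNA per cell cannot be told apart.

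**Figure D1:**
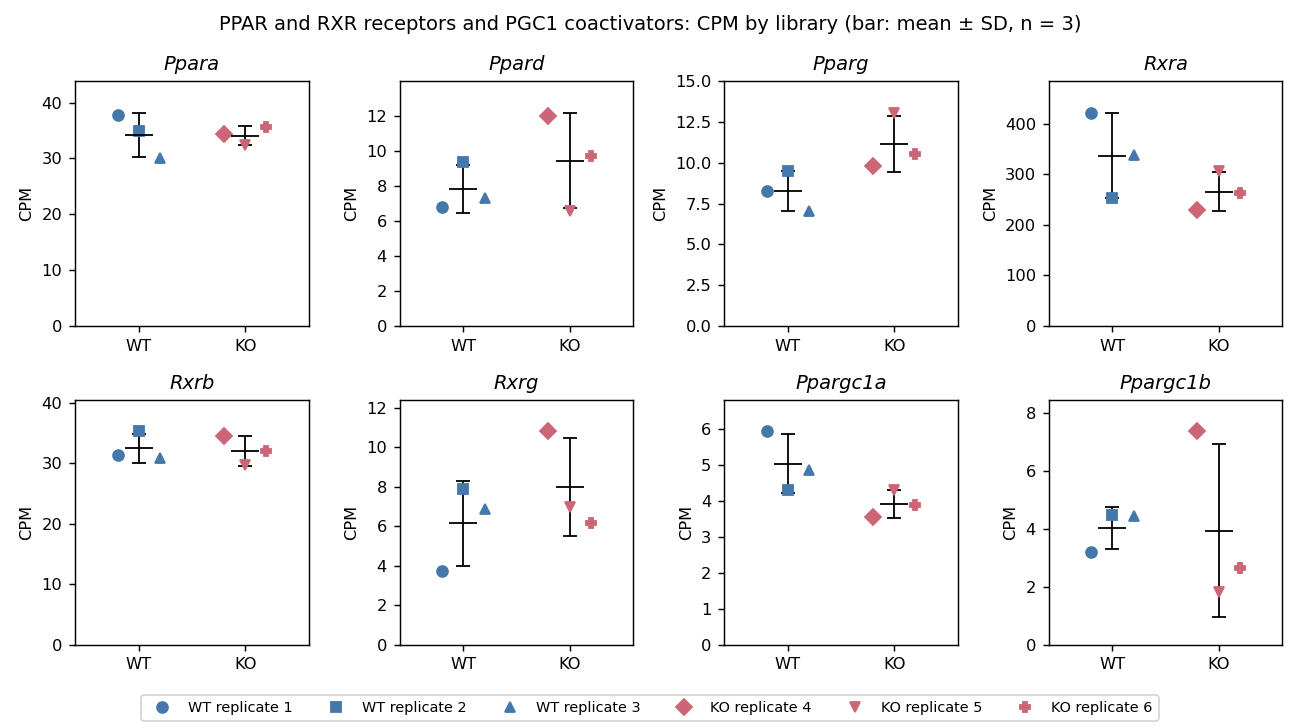
Level of each of the 8 genes (y axis, CPM from 0) in the WT-labelled and KO-labelled libraries; each symbol is 1 library, and the bars give mean ± SD (n = 3). Pparg is higher in all 3 KO-labelled libraries by a narrow gap (9.48 to 9.81 CPM), and with library size alone its groups overlap. Ppargc1b spreads from 1.81 to 7.36 CPM among the KO-labelled libraries, and Ppara and Rxrb hardly differ.

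The levels per gene length put Rxra far above the rest. Mean FPKM (counts per unit of gene length and of scaled library size, the authors' deposited values) over the 6 libraries was 55.0 for Rxra, with a range of 41.3 to 79.8. Ppara followed at 8.86 FPKM (7.75 to 10.2) and Rxrb at 8.67 FPKM (7.78 to 9.46), and these ranges overlap. Pparg at 3.26 FPKM (2.37 to 4.29) and Rxrg at 3.05 FPKM (1.68 to 4.64) also overlap, below all values of Ppara and Rxrb. Ppard at 1.14 FPKM (0.848 to 1.57), Ppargc1b at 0.991 FPKM (0.439 to 1.82) and Ppargc1a at 0.675 FPKM (0.530 to 0.929) were the lowest, with ranges that overlap one another. RXR transcripts thus summed to 55.1 to 90.2 FPKM per library, against 11.1 to 14.0 FPKM for the PPARs and 1.07 to 2.35 FPKM for the PGC1 coactivators.

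Ppara, the main PPAR of hepatocytes, stood at nearly the same level in both groups. Ppara (ENSMUSG00000022383, mm10 chromosome 15, 85734983 to 85802819, plus strand) had 37.8, 34.9 and 30.0 CPM in WT replicates 1, 2 and 3, and 34.3, 32.3 and 35.7 CPM in KO replicates 4, 5 and 6. The KO-labelled values lay inside the WT-labelled range. The fitted log2 change of KO over WT was −0.0048 (SE 0.18, 95% interval −0.43 to 0.42, edgeR adjusted p = 0.993), and the interval leaves room for a change of that size either way.

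Pparg was higher in the KO-labelled libraries, short of the threshold. Pparg (ENSMUSG00000000440, chromosome 6, 115360951 to 115490399, plus strand) had 133, 148 and 145 counts, or 8.29, 9.48 and 7.05 CPM, in WT replicates 1, 2 and 3. It had 108, 282 and 161 counts, or 9.81, 13.1 and 10.6 CPM, in KO replicates 4, 5 and 6. Group means were 8.27 ± 1.21 and 11.2 ± 1.70 CPM (SD, n = 3 each), a log2 change of 0.43 (SE 0.23, 95% interval −0.10 to 0.97, edgeR adjusted p = 0.638). The gap between the groups was narrow, from 9.48 to 9.81 CPM, and with counts scaled by library size alone the groups overlapped.

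The highest Pparg level was in KO replicate 5, the library with the adipocyte and muscle transcripts. Adipoq, the adipocyte hormone adiponectin, had 125 counts there and 0 to 2 in the others, and Lep, leptin, had 64 counts there and 0 in each of the others. Adipocytes express Pparg strongly, and their part in its level was not tested. Without KO replicate 5 the log2 change of Pparg was 0.30 (edgeR adjusted p = 0.521), against 0.43 with all libraries. It was also 0.30 without WT replicate 3, and ran from 0.30 to 0.54 over the fits with 1 library left out. KO replicates 4 and 6 had 7 and 1 counts of the 4 adipocyte genes. Their Pparg level lay above all 3 WT-labelled libraries in TMM-scaled CPM and in FPKM, but with library size alone the groups overlapped. Macrophages express Pparg too, and all 10 of a list of Kupffer cell and macrophage markers were fitted higher, with 0 of 10 past the threshold in edgeR. Of these markers 4 had an unadjusted p under 0.05 as higher, where 5.37% of the tested genes did. DESeq2 called 1 of the 10 markers, where it called 1.08% of its genes. The summed level of the 10 markers was 107.3 to 144.1 CPM in WT-labelled and 185.7 to 253.0 CPM in KO-labelled libraries. The part of macrophages in the Pparg level was not tested.

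**Figure D2:**
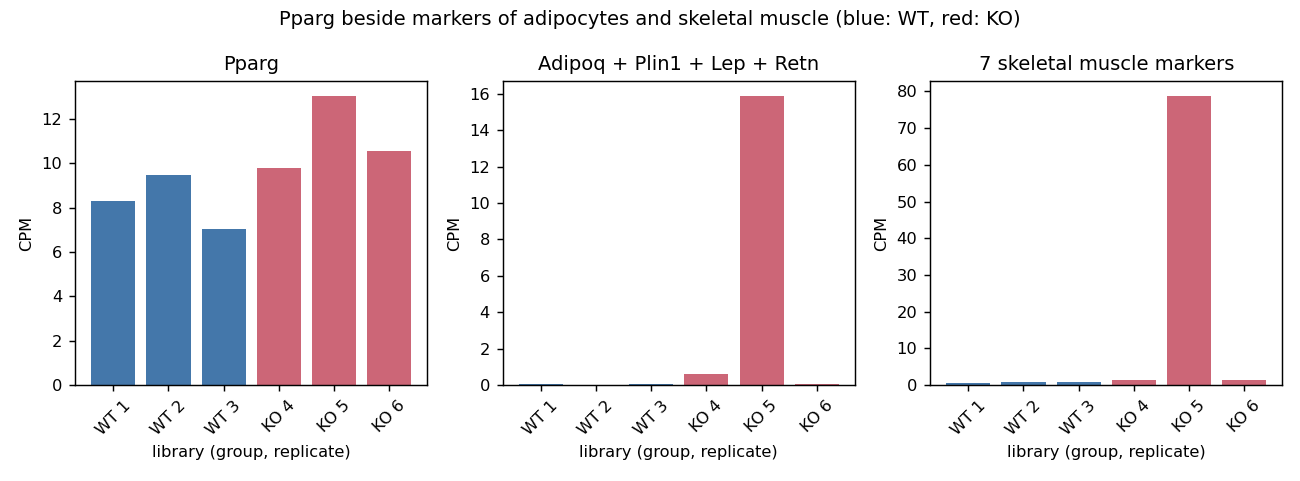
Level in each library (y axes, CPM from 0) of Pparg, of the adipocyte genes Adipoq, Plin1, Lep and Retn summed, and of 7 skeletal muscle genes summed; blue bars are WT-labelled and red bars KO-labelled libraries. KO replicate 5 has 15.9 CPM of the adipocyte genes and 78.9 CPM of the muscle genes, where the other libraries reach at most 0.636 and 1.54 CPM.

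Pparg is transcribed from alternative promoters, of which the upstream ones serve many tissues and the downstream one adipocytes. The gene-level counts add the transcripts of all of them. RefSeq (GRCm38.p6, the assembly of mm10) lists 3 start sites within the gene, shown here from 40 bases before to 20 bases after the start on the plus strand, with the first transcribed base in capitals, so that the sources the count pools can be seen.
Pparg start 1, chr6:115361104-115361164: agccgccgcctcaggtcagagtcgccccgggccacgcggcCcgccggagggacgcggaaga
Pparg start 2, chr6:115362309-115362369: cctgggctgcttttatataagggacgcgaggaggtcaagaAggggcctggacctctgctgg
Pparg start 3, chr6:115422026-115422086: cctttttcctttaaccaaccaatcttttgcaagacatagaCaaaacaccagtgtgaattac

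Ppard, the broadly expressed PPAR, varied more within the KO-labelled group than between the groups. Ppard (ENSMUSG00000002250, chromosome 17, 28232700 to 28301474, plus strand) had 6.79, 9.35 and 7.30 CPM in the WT-labelled and 12.0, 6.58 and 9.72 CPM in the KO-labelled libraries, in replicate order. KO replicate 5 was the lowest of the 6 and KO replicate 4 the highest. The log2 change was 0.27 (SE 0.29, 95% interval −0.40 to 0.93, edgeR adjusted p = 0.761).

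Pparg made up a larger share of PPAR transcripts in each KO-labelled library than in any WT-labelled one. Of the summed PPAR FPKM, Pparg took 20.7%, 23.7% and 21.4% in WT replicates 1, 2 and 3 and 24.0%, 32.2% and 25.3% in KO replicates 4, 5 and 6. KO replicate 4 exceeded WT replicate 2 only slightly, and KO replicate 5 was the highest. Ppara took 69.9% ± 2.75 in WT-labelled and 63.8% ± 2.19 in KO-labelled libraries (SD, n = 3 each). The log2 ratio of Pparg to Ppara, which does not depend on the scaling between libraries, was −1.68 ± 0.16 and −1.25 ± 0.27 (SD, n = 3 each). The difference of 0.43 gave an exact two-sided permutation p = 0.1, the smallest that 3 against 3 libraries allow, and an adjusted p of 0.4 over the 4 ratios compared. Without KO replicate 5 the difference was 0.27.

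**Figure D3:**
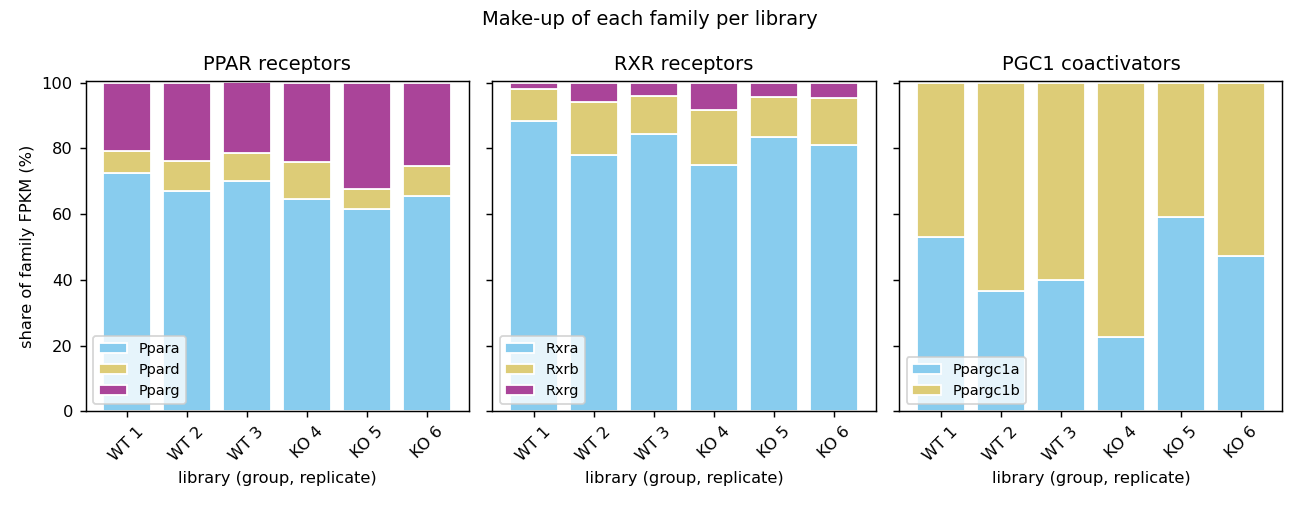
Share of each family's summed FPKM (y axis, percent) taken by each gene in each of the 6 libraries (x axis). Rxra fills 74.9% to 88.4% of the RXR bars, Pparg fills more of the PPAR bar in each KO-labelled library than in any WT-labelled one, and the 2 PGC1 genes trade places between libraries.

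Rxra, the hepatocyte RXR that partners PPARα and most metabolic nuclear receptors, was the most abundant of the 8 and leaned lower in the KO-labelled libraries, with overlap. Rxra (ENSMUSG00000015846, chromosome 2, 27676440 to 27762957, plus strand) had 421.1, 252.3 and 337.4 CPM in WT replicates 1, 2 and 3, and 228.7, 306.2 and 263.0 CPM in KO replicates 4, 5 and 6. WT replicate 1 was the highest and KO replicate 4 the lowest, and each group had values within the range of the other. The log2 change was −0.34 (SE 0.26, 95% interval −0.94 to 0.26, edgeR adjusted p = 0.691). Without WT replicate 1, the library whose Trem2 count went against its label, it was −0.15, and with 1 surrogate variable or the mitochondrial share as covariate −0.0465 and −0.0578. Because the mitochondrial share goes in part with the labels, the value with that covariate is not a corrected estimate.

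Rxrb, the ubiquitous RXR, varied little. Rxrb (ENSMUSG00000039656, chromosome 17, 34031812 to 34038393, plus strand) ranged from 29.7 to 35.3 CPM over all 6 libraries, with means of 32.5 ± 2.42 and 32.1 ± 2.42 CPM (SD, n = 3 each). Its log2 change was −0.0201 (SE 0.18, 95% interval −0.43 to 0.39, edgeR adjusted p = 0.972).

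Rxrg, the RXR known chiefly from muscle and nervous tissue, was measured at a low level in each liver library. Rxrg (ENSMUSG00000015843, chromosome 1, 167598384 to 167639623, plus strand) had 60, 123 and 141 counts in the WT-labelled and 119, 151 and 94 counts in the KO-labelled libraries. As CPM these were 3.74, 7.88 and 6.86 against 10.8, 6.99 and 6.17, so that WT replicate 1 was lowest, KO replicate 4 highest and the other 4 lay between 6.17 and 7.88. The log2 change was 0.37 (SE 0.36, 95% interval −0.46 to 1.1961, edgeR adjusted p = 0.739). With 1 surrogate variable it was 0.0729, with the mitochondrial share as covariate 0.0475, without KO replicate 4 0.0965 and without WT replicate 1 0.11. The part of the skeletal muscle transcripts of KO replicate 5 in the level of Rxrg was not tested.

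Within the RXR family the shares of Rxra and Rxrb overlapped between the groups. Rxra took 83.7% ± 5.22 of the RXR FPKM in WT-labelled and 79.8% ± 4.42 in KO-labelled libraries, and Rxrb 12.4% ± 3.32 and 14.4% ± 2.37 (SD, n = 3 each). The log2 ratio of Rxrb to Rxra differed by 0.30 between the groups (two-sided exact permutation p = 0.4, adjusted p = 0.533), and that of Ppard to Ppara by 0.24 (exact permutation p = 0.4, adjusted p = 0.533). Neither exceeded the spread between libraries.

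Ppargc1a, the coactivator induced by fasting and cold, leaned lower in the KO-labelled libraries. Ppargc1a (ENSMUSG00000029167, chromosome 5, 51454250 to 51567726, minus strand) had 95, 67 and 100 counts, or 5.92, 4.29 and 4.86 CPM, in WT replicates 1, 2 and 3. In KO replicates 4, 5 and 6 it had 39, 93 and 59 counts, or 3.54, 4.31 and 3.88 CPM. KO replicate 5 lay just above WT replicate 2, so the groups overlapped in TMM-scaled CPM. In FPKM, which is scaled otherwise, all KO-labelled values (0.530, 0.633 and 0.581 in replicate order) lay below all WT-labelled ones (0.929, 0.645 and 0.731). With counts scaled by library size alone, all KO-labelled values also lay below all WT-labelled ones. The log2 change was −0.36 (SE 0.27, 95% interval −0.99 to 0.28, edgeR adjusted p = 0.691). At these counts the 95% exact Poisson interval, which covers counting error only, ran from 2.52 to 4.84 CPM in KO replicate 4, the lowest library, and from 4.79 to 7.24 CPM in WT replicate 1, the highest, so even these intervals met.

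Ppargc1b, the coactivator tied to lipogenic and oxidative genes, had the largest standard error of the 8. Ppargc1b (ENSMUSG00000033871, chromosome 18, 61298136 to 61400431, minus strand) had 51, 70 and 91 counts, or 3.18, 4.48 and 4.43 CPM, in the WT-labelled libraries in replicate order. It had 81, 39 and 40 counts, or 7.36, 1.81 and 2.63 CPM, in KO replicates 4, 5 and 6. KO replicate 4 lay above and KO replicates 5 and 6 below all WT-labelled libraries. The exact Poisson interval of KO replicate 4 (5.84 to 9.14 CPM) did not meet those of KO replicates 5 (1.28 to 2.47 CPM) and 6 (1.88 to 3.58 CPM), so this spread is wider than counting error. The log2 change was −0.06 (SE 0.53, 95% interval −1.28 to 1.156, edgeR adjusted p = 0.972), and without KO replicate 4, the library with the highest mitochondrial share, it was −0.87 (edgeR adjusted p = 1). With the mitochondrial share as covariate it was −1.07 and with 1 surrogate variable −0.74.

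The balance of the PGC1 genes varied more among the KO-labelled libraries than between the groups. Ppargc1a took 53.0%, 36.7% and 39.9% of the PGC1 FPKM in WT replicates 1, 2 and 3, and 22.6%, 59.1% and 47.2% in KO replicates 4, 5 and 6. The lowest and the highest share of all were both in KO-labelled libraries. The log2 ratio of Ppargc1a to Ppargc1b was −0.40 ± 0.51 and −0.47 ± 1.18 (SD, n = 3 each; two-sided exact permutation p = 1, adjusted p = 1).

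**Figure D4:**
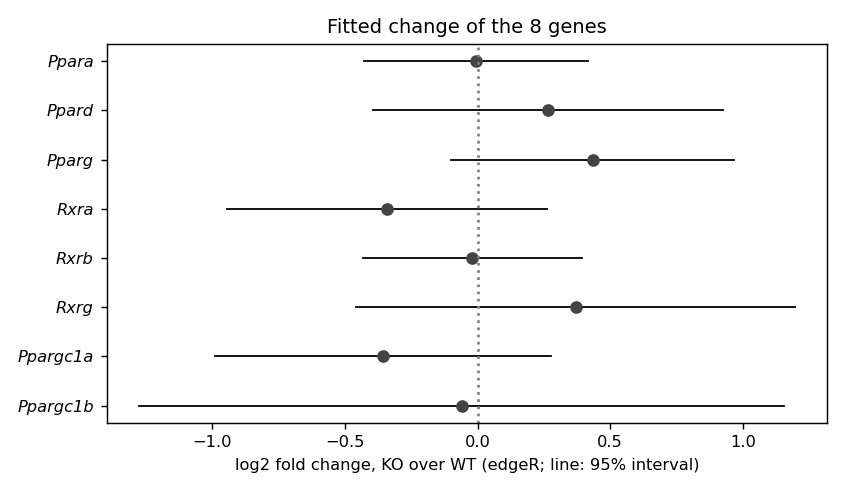
Fitted log2 fold change of KO over WT for each of the 8 genes (points) with its 95% interval from edgeR (lines); the dotted line marks no change. All 8 intervals include 0, from the narrow ones of Ppara and Rxrb to that of Ppargc1b, −1.28 to 1.156.

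For each of the 8 genes the most similar profiles over the 6 libraries were sought among the other genes of at least 10 CPM (7238 at most), by Pearson's r of log2 CPM; with so few libraries this r is a description. Rxra ran closest to the fibrinogen chain gene Fgb (r = 0.998), then to Ssr4 and Erlec1, genes of the endoplasmic reticulum (r = 0.997 each). Ppargc1a ran closest to Cyp7b1, an oxysterol hydroxylase of bile acid synthesis (r = 0.999), and Hnrnpa2b1 was also close (r = 0.997). Pparg ran closest to Spast (r = 0.988), to Me1, malic enzyme, which supplies NADPH for fat synthesis (r = 0.978), and to Stx7 (r = 0.977). Ppara had Notum, Kif13a and C1s1 (r = 0.986, 0.960 and 0.957), and Ppard had Chd8, Ermard and Nadsyn1 (r = 0.997, 0.997 and 0.996). Rxrb had Dazap1, Sbf1 and Dhx30 (r = 0.993, 0.993 and 0.991), Rxrg had Ago1, Tmie and H2-Aa (r = 0.993, 0.990 and 0.984), and Ppargc1b had Taf15, Bcr and Nfyc (r = 0.985, 0.973 and 0.964). All these values come from the same 6 libraries, so differences between them in depth, mitochondrial share or group enter every r.

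The proteins that work with the receptors were examined as lists: cofactors, partner receptors and regulators. Among all genes tested, 49.1% were fitted higher and the median log2 change was −0.0096. Of 12 other coactivators, 11 were fitted lower (median −0.31), 0 passed over all genes in edgeR, and 2 had an unadjusted p under 0.05, both lower, where 3.21% of the tested genes did. These were Ncoa2, a p160 coactivator, at 28.7, 24.3 and 23.1 CPM in WT-labelled and 13.3, 19.5 and 19.0 CPM in KO-labelled libraries (log2 −0.55, SE 0.22, edgeR adjusted p = 0.55), and Med1, the Mediator subunit that contacts nuclear receptors (log2 −0.52, SE 0.22, edgeR adjusted p = 0.578). In both the groups did not overlap, where 5.73% of the tested genes had all KO-labelled values below all WT-labelled ones. DESeq2 called 0 of 12, and no member had an unadjusted p under 0.05 without WT replicate 2, WT replicate 3, KO replicate 4 or KO replicate 6. Lpin1, which amplifies PGC1α with PPARα, was the most abundant of the list and ran from 93.1 to 497.2 CPM among WT-labelled libraries alone (log2 −0.78, SE 0.63). Prmt1, an arginine methyltransferase, the p160 coactivator Ncoa3 and the deacetylase Sirt1, which activates PGC1α, had log2 changes of −0.30, 0.20 and −0.50, each with overlap between the groups.

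Of 7 corepressors 5 were fitted higher (median 0.09), with 0 past an adjusted or an unadjusted p of 0.05 in edgeR and 0 called by DESeq2. Hdac3, the deacetylase of the NCoR complex, stood at 37.4 ± 5.02 and 49.1 ± 9.07 CPM (SD, n = 3 each), and Gps2, a subunit of the same complex, had a log2 change of 0.52 (SE 0.28, edgeR adjusted p = 0.642). Nrip1 (RIP140) had a log2 change of 0.60, and all 3 overlapped between the groups. Without KO replicate 5, 3 corepressors had an unadjusted p under 0.05 as higher and 1 as lower, in a fit where 8.88% and 10.2% of all genes did.

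Of 11 other receptors that pair with RXR, 9 were tested and 7 were fitted higher (median 0.25), with 0 past an adjusted or an unadjusted p of 0.05 in edgeR and 0 called by DESeq2; Rarb and Vdr were too low to test. The median was 0.13 without WT replicate 1, 0.15 without WT replicate 3, 0.40 without KO replicate 5 and 0.46 without WT replicate 2, and with the mitochondrial share as covariate 5 were fitted higher and 4 lower (median 0.0285). Nr1i2, the xenobiotic receptor PXR, had 94.5, 98.8 and 109.0 CPM in WT-labelled and 169.0, 89.6 and 210.9 CPM in KO-labelled libraries. KO replicates 4 and 6 were above and KO replicate 5 below all WT-labelled values (log2 0.63, SE 0.32, edgeR adjusted p = 0.623). Nr1h4, the bile acid receptor FXR, and Nr1h3, the oxysterol receptor LXRα, had log2 changes of 0.24 and −0.17, and the retinoic acid receptor Rarg and the thyroid hormone receptor Thra of 0.59 and 0.38, all with overlap.

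Of 12 factors through which PGC1 acts, 11 were fitted lower (median −0.19) and 0 passed in edgeR or DESeq2. Only 1, Gabpa, had an unadjusted p under 0.05, as lower, where 3.21% of the tested genes did. Gabpa, a subunit of NRF2/GABP that drives respiratory chain genes, had 31.4, 23.0 and 28.2 CPM in WT-labelled and 11.2, 23.3 and 13.1 CPM in KO-labelled libraries (log2 −0.79, SE 0.31, edgeR adjusted p = 0.539). Without WT replicate 1 the list had 3 higher and 9 lower (median −0.12), and with the mitochondrial share as covariate 5 higher and 7 lower. Hnf4a, the hepatocyte master regulator, and Esrra, the main orphan receptor partner of PGC1α, had log2 changes of −0.0569 and −0.0549, and Yy1 and Tfb1m, factors of nuclear and mitochondrial transcription, of −0.23 and −0.41. Among 9 regulators upstream of Ppargc1a, 4 were fitted higher and 5 lower (median −0.22), with 0 past either threshold in edgeR and 0 called by DESeq2. Sik1, a kinase that restrains CREB coactivators, and Crtc2, one of those coactivators, had log2 changes of 0.27 and −0.34. Kat2a (GCN5), which acetylates PGC1α, had 0.50, Prkaa2, a catalytic subunit of AMPK, −0.60 and Atf2 −0.43, and the groups overlapped for all 5.

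**Figure D5:**
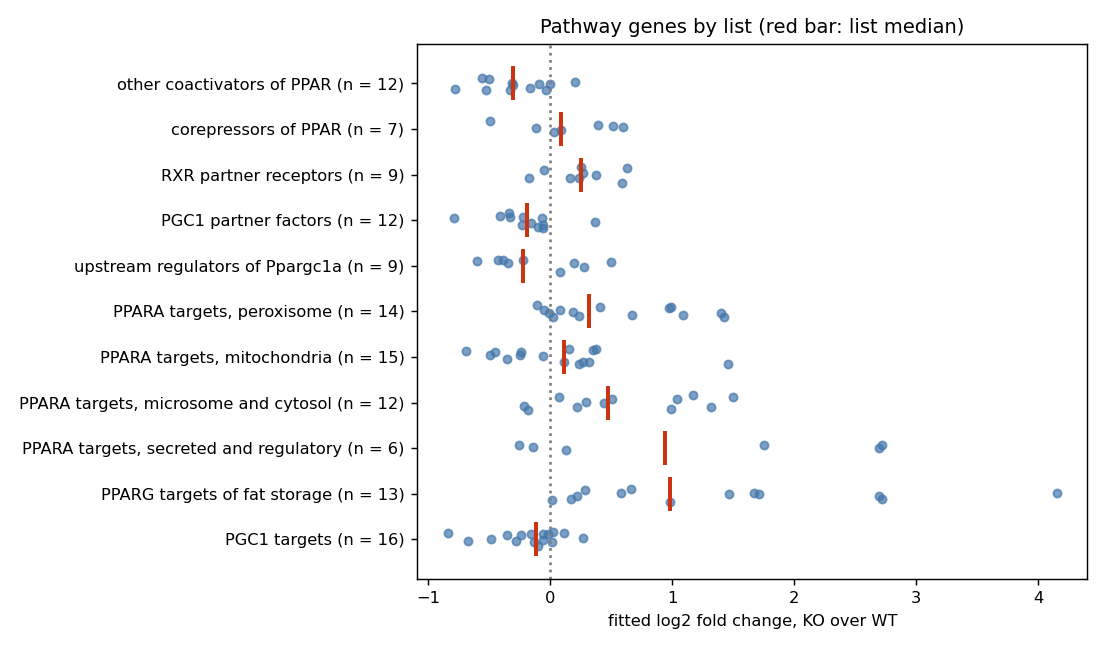
Fitted log2 fold change of KO over WT (x axis) of each tested gene (points) in 11 lists around the receptors (y axis), with each list's median as a red bar; points are spread vertically only to be seen. Medians run from −0.31 for the other coactivators to 0.98 for the PPARG targets of fat storage, and single genes of the target lists reach beyond 2.

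Targets of PPARα differed in size of change from gene to gene. Among 14 peroxisomal targets 11 were fitted higher (median 0.32; 8 higher with a median of 0.15 without WT replicate 2, and 14 higher with medians of 0.52 and 0.55 without WT replicate 1 and without KO replicate 4), 0 passed over all genes in edgeR, and 5 had an unadjusted p under 0.05, all higher, where 5.37% of the tested genes did. DESeq2 called 4 of the 14, where it called 1.08% of its genes. These were Crat, Acaa1b, Pex11a and Acot3, each higher in the KO-labelled libraries. Crat, carnitine acetyltransferase, had 24.9, 38.2 and 50.1 CPM in WT-labelled and 82.6, 72.3 and 144.9 CPM in KO-labelled libraries (log2 1.40, SE 0.36, edgeR adjusted p = 0.4), and Acaa1b, a peroxisomal thiolase, went from 1426 ± 197.3 to 2800 ± 464.5 CPM (SD, n = 3 each; log2 0.97). Pex11a, which multiplies peroxisomes, had 148.9, 140.6 and 116.9 CPM against 274.6, 228.7 and 359.8 CPM (log2 1.09, SE 0.25, edgeR adjusted p = 0.37), and Acot3, a peroxisomal thioesterase, a log2 change of 1.43 (SE 0.38). In these 4 the groups did not overlap. Of the 14, 5 had all KO-labelled values above all WT-labelled ones, where 8.12% of the tested genes did. Decr2, a peroxisomal reductase, had a log2 change of 0.0856 (SE 0.25), with overlap.

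Mitochondrial targets of PPARα had a median whose sign depended on the library left out. Of 16 genes 15 were tested, 8 fitted higher and 7 lower (median 0.11), and 0 passed in edgeR or DESeq2. Only 1 had an unadjusted p under 0.05, as higher, where 5.37% of the tested genes did. The median was −0.0121 in DESeq2, −0.038 without WT replicate 2, −0.0052 without KO replicate 6, and 0.0374 without WT replicate 3. Without WT replicate 1, 14 of 15 were fitted higher (median 0.39), and with 1 surrogate variable or the mitochondrial share as covariate all 15 were (median 0.47 in both). The gene with that p was Acot2, a mitochondrial acyl-CoA thioesterase, at 18.5, 10.3 and 11.8 CPM against 19.8 to 55.8 CPM (log2 1.46, SE 0.40, edgeR adjusted p = 0.4); reads of Acot2 and Acot3 can be exchanged with those of near relatives in the same cluster. Cpt2, carnitine palmitoyltransferase 2, had a log2 change of 0.35 (SE 0.24). Eci1 and Acadl, of β-oxidation, had 0.27 and 0.11, and these 3 overlapped between the groups.

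Of 12 microsomal and cytosolic targets 10 were fitted higher (median 0.48), with 0 past the threshold in edgeR or DESeq2 and 5 at an unadjusted p under 0.05 in edgeR, all higher, where 5.37% of the tested genes were. That count was 2 without WT replicate 1, without WT replicate 3 and without KO replicate 6, and 3 without WT replicate 2. Cyp4a10 and Cyp4a14, fatty acid ω-hydroxylases widely used as readouts of PPARα, had log2 changes of 1.32 (SE 0.48) and 1.5015 (SE 0.57), and for both the groups overlapped. KO replicate 6 was far above the others, at 1498 CPM for Cyp4a10 and 1236 CPM for Cyp4a14, while KO replicates 4 and 5 had 613.6 and 449.2 CPM and 249.5 and 475.7 CPM. Vnn1, a pantetheinase, stood at 69.2 ± 26.3 and 156.2 ± 49.3 CPM (SD, n = 3 each; log2 1.17, SE 0.36, edgeR adjusted p = 0.435) without overlap. Me1, whose profile ran close to that of Pparg, had 73.3, 113.5 and 62.1 CPM against 115.0, 268.5 and 126.8 CPM (log2 1.04, SE 0.39, edgeR adjusted p = 0.526), highest in KO replicate 5. Fabp1, the liver fatty acid binding protein and the most abundant target, had 5212, 8798 and 5243 CPM against 9584, 6492 and 10100 CPM (log2 0.44, SE 0.34).

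Fabp1 also carried the element that a PPAR and RXR pair is known to bind, a direct repeat with 1 free base between its copies. The search used 2 copies of AGGTCA with N between them, and a looser form with AGGNCA as each copy, which contains the first, on both strands of RefSeq promoters of 300 bases (250 before to 50 after the start, GRCm38.p6). The first was found in 0.0396% and the second in 0.381% of all 32851 promoters. Of the 76 genes in the PPARA, PPARG and PGC1 target lists 57 had a promoter entry, with 70 promoters between them, of which 0 held the first and 1 the second. No promoter of the 7 of the 8 genes with an entry held either. The match lies 67 bases before the start of Fabp1, on the strand opposite to the gene, and is shown with 20 bases on each side, in the gene's direction (plus strand), the match in capitals.
Fabp1, chr6:71199792-71199844: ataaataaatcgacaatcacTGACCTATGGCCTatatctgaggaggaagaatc

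The secreted and regulatory targets ranged from a hormone to transcription factors. Fgf21, the hepatokine of fasting, had 2.24, 7.11 and 6.95 CPM in WT-labelled and 25.7, 12.6 and 16.9 CPM in KO-labelled libraries, without overlap (log2 1.75, SE 0.46, edgeR adjusted p = 0.4). Angptl4, an inhibitor of lipoprotein lipase, and Creb3l3, a transcription factor that acts with PPARα, had log2 changes of 0.13 and −0.14. Of the 6 genes of this list 4 were fitted higher (median 0.94). The 3 with an unadjusted p under 0.05, all higher, where 5.37% of the tested genes were, were Fgf21 and the storage genes Cidec and Mogat1. Cidec and Mogat1, neither secreted nor regulatory, are in the PPARG list too and enter the median of both lists. They had the highest log2 changes of the 6, and the median lies midway between Fgf21 (1.75) and Angptl4 (0.13). It therefore does not describe the secreted and regulatory genes as a set. In edgeR 0 of 6 passed over all genes, and DESeq2, which called 1.08% of its genes, called Fgf21, Cidec and Mogat1.

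Fat storage genes known as PPARγ targets had a high median among the lists. Cidec and Mogat1 are also in the list of secreted and regulatory PPARα targets, so the medians of these lists are not independent. In the PPARG list of 16 genes 13 were tested and all 13 were fitted higher (median 0.98). In edgeR 0 passed the threshold over all genes, and 6 had an unadjusted p under 0.05, all higher, where 5.37% of the tested genes were. DESeq2, which gave a log2 change for all 16, called 5, where it called 1.08% of its genes. These were Cidea, Cidec, Fabp4, Cd36 and Mogat1, each higher. Mogat1, a monoacylglycerol acyltransferase, had 0.810, 3.27 and 0.827 CPM in WT-labelled and 10.2, 8.85 and 12.5 CPM in KO-labelled libraries (log2 2.69, SE 0.56, edgeR adjusted p = 0.365). Cd36, a fatty acid transporter, had 28.0, 53.3 and 50.8 CPM against 120.5, 144.7 and 155.2 CPM (log2 1.67, edgeR adjusted p = 0.297), and Cidec, which enlarges lipid droplets, had 10.03, 23.9 and 8.71 CPM against 119.2, 74.9 and 85.7 CPM (log2 2.72, edgeR adjusted p = 0.277). Cidea, a lipid droplet protein, had 3.91, 2.55 and 7.03 CPM in KO replicates 4, 5 and 6. KO replicate 5 holds adipocyte transcripts, whose part in the levels of this list was not tested. Without it 12 of the 13 were fitted higher, 6 of them at an unadjusted p under 0.05 (8.88% of all genes in that fit), with a median of 1.01. Without KO replicate 6, 9 were fitted higher and 4 lower, 5 at an unadjusted p under 0.05, with a median of 0.77. Cidea would have been too low to test but for its counts in the KO-labelled libraries. Of the 3 genes too low to test, Plin1 and Adipoq had 122 and 125 counts in KO replicate 5 and at most 5 and 2 elsewhere, and Aqp7 averaged 0.0538 and 0.766 CPM. Liver cells other than hepatocytes express some of these genes, Cd36 and Fabp4 among them. All 9 markers of sinusoidal endothelium were fitted higher, with sums of 200.2 to 213.1 CPM in WT-labelled and 272.3 to 386.3 CPM in KO-labelled libraries. Of the 9, 2 had an unadjusted p under 0.05 as higher, where 5.37% of the tested genes did, and DESeq2 called 0. Of 10 stellate cell markers 5 were fitted higher, 4 of them at an unadjusted p under 0.05, and DESeq2 called 3, where it called 1.08% of its genes. The stellate markers summed to 183.0 to 192.6 CPM in WT-labelled and 202.9 to 399.1 CPM in KO-labelled libraries. Of 10 hepatocyte markers 8 were fitted lower. The part of these cells in the list was not tested. G0s2, an inhibitor of fat breakdown and the most abundant of the list, overlapped between the groups (log2 0.58, SE 0.51), as did Acsl1, which activates fatty acids, and Pnpla2, the lipase ATGL (log2 0.22 and 0.17).

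PGC1 targets of gluconeogenesis and respiration had a median close to that of all genes. Of 16 tested 4 were fitted higher and 12 lower (median −0.12), with 0 past an adjusted or an unadjusted p of 0.05 in edgeR and 0 called by DESeq2. Without WT replicate 1, 10 were fitted higher (median 0.0728), with 1 surrogate variable 14 (0.0921) and with the mitochondrial share as covariate 12 (0.11). Without WT replicate 2 the median was −0.24 and without WT replicate 3 −0.18. Pck1, the committing enzyme of gluconeogenesis, ran from 1584 to 4941 CPM in WT-labelled and from 1907 to 3320 CPM in KO-labelled libraries (log2 −0.28, SE 0.44). Fbp1, the next regulated step of gluconeogenesis, ran from 150.3 to 916.1 CPM over the 6 libraries (log2 −0.67, SE 0.79), Alas1, of haem synthesis, had a log2 change of −0.48 and Cox5b, of respiratory complex IV, of 0.27. Atp5b, the catalytic subunit of ATP synthase, varied from 316.6 to 1097 CPM within the WT-labelled group (log2 −0.84, SE 0.58, edgeR adjusted p = 0.676).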

How the data were processed

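The authors deposited whole read counts per gene and an FPKM table for the same genes; tools listed in the submitters' processing notes are DESeq2 1.16.1, HISAT2 2.0.5 and featureCounts 1.5.0-p3, with the build mm10. Their roles and settings, and the use of strand, are not given there. In the authors' FPKM table, count over gene length and FPKM gave 1 library size per library, equal to the geometric mean of all totals multiplied by a DESeq2 size factor. Groups came from sample titles, and 0 sample columns went unused. Counts of library pairs differed far beyond sampling noise (lowest chi-square per degree of freedom 42.3).

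Tests on the counts ran in R 4.3.3 with edgeR 4.0.16 (TMM, filterByExpr, quasi-likelihood test, Benjamini-Hochberg over 13693 genes, threshold 0.05). On simulated counts the same test called 4 of 50 changes of 2-fold and 49 of 50 changes of 16-fold. Of its 130 calls there, 10 were false. A gene not called can therefore still have changed 2-fold. SEs are the log2 change over the square root of F. Log2 CPM used a prior count of 2. Ratios and shares used FPKM. Depth limits the low genes: Ppargc1a and Ppargc1b rest on 39 to 100 counts per library.

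Named genes are the 8 members, per list the 3 highest by mean FPKM and the 3 with the smallest p, and per member the 3 most similar profiles, of which some are not reported here; list genes named as untested, Fabp4 and the 4 adipocyte genes were named after their values were seen. The members and lists were chosen with earlier results of these data known. Alternatives were DESeq2 1.42.0, limma 3.58.1 (voom, with and without quality weights, and log2 FPKM plus 1 or 0.1), other scalings and filters, robust dispersions, 1 surrogate variable (sva 3.50.0), the mitochondrial share as covariate, and each library left out.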

Additional observations from a re-analysis of the deposited data

How the results depend on the processing

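No paired analysis was possible because the groups share no replicate numbers. The count of called genes among the 8 stayed at 0 in 20 of 21 alternatives. It was 1 in limma-voom with sample quality weights, which called 4063 of 13693 genes. The leave-out of WT replicate 1 with KO replicate 5 was added after seeing the data. The signs of Pparg, Rxra, Rxrg and Ppargc1a were the same in all 21; with 1 library left out, Pparg ranged from 0.30 to 0.54, Rxra from −0.52 to −0.15, Rxrg from 0.10 to 0.57 and Ppargc1a from −0.46 to −0.23. With 1 surrogate variable and with the mitochondrial share as covariate, Pparg was 0.48 and 0.56, Rxra −0.0465 and −0.0578, Rxrg 0.0729 and 0.0475, and Ppargc1a −0.18 in both.

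The changes of Ppara, Rxrb, Ppargc1b and Ppard turned sign in some alternatives, and the cause was not tested. Ppara was 0.00060 in limma-voom, 0.19 with quality weights, 0.0494 with upper quartile scaling, 0.0053 with a filter at 1 CPM, between −0.12 and 0.0705 with 1 library left out, and 0.10 without WT replicate 1 and KO replicate 5. Rxrb was 0.0544, 0.0299 and 0.0022 with quality weights, upper quartile scaling and without that pair, and between −0.082 and 0.0364 with 1 library left out. Ppargc1b was −1.07 with the mitochondrial share as covariate (edgeR adjusted p = 0.702), −0.74 with 1 surrogate variable, 0.00030 with upper quartile scaling, 0.14 without that pair, and between −0.87 and 0.29 with 1 library left out. Ppard, at 0.27 in the main fit, was −0.0672 with 1 surrogate variable and −0.17 with the mitochondrial share as covariate. The difference in the log2 ratio of Ppargc1a to Ppargc1b, −0.0701, ranged from −0.57 (without KO replicate 5) to 0.58 (without KO replicate 4).

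Whether the PPARG or the secreted and regulatory PPARA targets had the higher median depended on the setting: the latter did with log2(FPKM + 1) (0.94 against 0.72) and without KO replicate 5 (1.10 against 1.01), among others. Both lists hold Cidec and Mogat1, so their medians are not independent. List medians moved by more than the spread between libraries (1 SD) in 18 of 231 cases. The PPARG target median was 1.54 in DESeq2 and 1.55 without a filter, both of which gave a log2 change for all 16 genes. It was 1.47 with a filter at 1 CPM, 0.77 to 1.44 with 1 library left out, and 0.73 without WT replicate 1 and KO replicate 5. With quality weights the medians were −0.21 (other coactivators), 0.28 (corepressors), −0.0092 (upstream regulators) and 0.83 (microsomal PPARA targets). With log2(FPKM + 1) other coactivators had −0.21. With 1 surrogate variable they were −0.13 (upstream regulators), 0.70 (peroxisomal) and 0.79 (microsomal targets), and with the mitochondrial share −0.0469 (PGC1 partners) and −0.10 (upstream regulators). Upstream regulators had −0.12 without WT replicate 1 and KO replicate 5. With 1 library left out, other coactivators ran from −0.36 to −0.13 and upstream regulators from −0.29 to −0.0541. The cause was not tested.

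The number of genes called over the whole table depended on the tool, from 0 to 2 in most fits to 9 with 1 surrogate variable, 11 without WT replicate 1 and KO replicate 5, 61 without a filter, 165 in DESeq2 and 4063 in limma-voom with quality weights, against 2.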
